A study of Homo sapiens with 6 samples.

Results

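The genes described here are 9 folding factors of the endoplasmic reticulum (ER): the protein disulfide isomerases PDIA3, PDIA4, PDIA5, PDIA6, P4HB, TXNDC5 and ERP44, and the lectin chaperones CALR and CANX. They were chosen by symbol, 9 of the 34234 gene symbols in the deposited counts, and all 9 were expressed highly enough to be tested. RNA was sequenced from HCCLM3 cells, a metastatic human hepatocellular carcinoma line, in 6 libraries. In the shATXN7L3 group (3 libraries), cells received a lentivirus carrying a hairpin against ATXN7L3, an adaptor of the deubiquitinase module of the SAGA coactivator. In the shcontrol group (3 libraries), they received a lentivirus with a control hairpin. Both groups were grown in DMEM with serum and had their medium changed after the virus. The labels give neither the number of hairpins nor the time of harvest, and do not say whether replicates came from separate cultures. All p-values are therefore relative to a spread between libraries that may be technical.

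Proteins that enter the ER are folded there before they are secreted or sent to the cell surface, and hepatocytes carry a heavy load of this kind. Protein disulfide isomerases make, break and reshuffle disulfide bonds through thioredoxin-like domains. The lectins calnexin (CANX, anchored in the membrane) and calreticulin (CALR, soluble) hold new glycoproteins through a trimmed sugar, and PDIA3 works at their side on the same clients. Many of these genes belong to the unfolded protein response, a programme run by the factors ATF6, XBP1 and ATF4 that raises the folding capacity of the ER.

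Of the 9 genes, 6 fell in shATXN7L3 cells, 1 rose and 2 did not pass the test (edgeR, Benjamini-Hochberg adjusted p under 0.05). The 6 that fell were CALR, CANX, P4HB, PDIA3, PDIA4 and PDIA6, by 13.3% to 24.5%, and the 1 that rose was PDIA5, to 130% of the control level. Over all 17935 tested genes, 12.0% were called lower, 12.2% higher and 24.2% in either direction. The median log2 fold change was -0.25 over the 9 genes and 0.01 over all tested genes. The 6 that fell are also the 6 of the 9 with a mean level of at least 300 CPM, the TMM-scaled count in 1000000 reads. Among the 388 tested genes at that level, 47.9% were called, 35.8% lower and 12.1% higher, with a median of -0.07. Levels are relative to the other transcripts of a library, and fewer cells of a kind and less RNA per cell cannot be told apart.

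Library totals ran from 22757031 to 23915783 counts in shATXN7L3 and from 22376867 to 23033763 in shcontrol. ATXN7L3 itself stood at 20.6, 20.5 and 19.5 CPM in shATXN7L3 replicates 1 to 3, against 36.4, 37.5 and 37.5 CPM in shcontrol. That left 54.5% of the control level (log2 fold change -0.88 ± 0.056 SE, edgeR adjusted p = 6.69e-10). Of 9 tested hepatocyte markers, 8 fell and 0 rose. The summed level of all 10 listed was 199 to 204 CPM in shATXN7L3 and 463 to 516 CPM in shcontrol. Albumin was present at 24.1 and 65.2 CPM in shATXN7L3 and shcontrol, while APOA1 was below the filter and AFP, an oncofetal liver protein, averaged 2.04 and 2.91 CPM. Of the tested leukocyte markers, CD68 averaged 122 CPM in shATXN7L3 and 100.5 CPM in shcontrol, and LYZ averaged 0.169 and 0.922 CPM in the same order. The endothelial list gave 73.0 to 75.1 CPM in shATXN7L3 and 75.7 to 82.2 CPM in shcontrol, with PECAM1 lower and ESAM higher among 3 tested. The fibroblast and stellate list gave 5.39 to 6.19 CPM in shATXN7L3 and 23.8 to 27.9 CPM in shcontrol, with LUM the 1 tested member, which fell. The part of these markers in the results below was not tested.

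Short regulatory sequences are shown for 3 of the genes that fell, because CALR, CANX and PDIA6 hold an exact match to the ER stress response element, the letters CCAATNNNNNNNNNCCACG, in a promoter window of RefSeq (build GRCh38.p14, 250 bases before to 50 after a gene start). Windows existed for 8 of the 9 genes, 14 in all, and there was none for PDIA3. The exact motif was found, on either strand, in 27 of all 35116 promoter windows (0.0769%). The HSP70 and HSP90 of the ER, HSPA5 and HSP90B1, are shown beside them. Each line reads 5′ to 3′ along the motif, whose span is in capitals.
CANX, chr5:179698773-179698801, plus strand: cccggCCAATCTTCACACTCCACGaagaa
CALR, chr19:12938379-12938407, minus strand: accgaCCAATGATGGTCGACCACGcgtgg
PDIA6, chr2:10812848-10812876, minus strand: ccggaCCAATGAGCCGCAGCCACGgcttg
HSPA5, chr9:125241386-125241414, minus strand: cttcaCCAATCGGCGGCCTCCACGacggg
HSP90B1, chr12:103930211-103930239, plus strand: cctgaCCAATCGGAAGGAGCCACGcttcg
HSP90B1, chr12:103930316-103930344, minus strand: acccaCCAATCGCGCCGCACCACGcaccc

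The outer blocks CCAAT and CCACG are common to all these lines and the 9 bases between them differ. In CALR, and in the second match of HSP90B1, the motif lies on the strand opposite to the gene, and in PDIA6 it precedes 1 of 2 listed starts. In CANX and HSP90B1 the 29 bases fall inside an exon of the deposited annotation. Windows of P4HB, PDIA4, PDIA5, TXNDC5 and ERP44 held no match, also with 1 mismatch allowed (545 of all windows, 1.55%). The related motif ERSE-II, found in 19 windows, was in none of those of the 8 genes. The letters TGACGTGG, the core of another unfolded protein response element (256 windows, 0.729%), were found before 1 start of TXNDC5:
TXNDC5, chr6:7910156-7910175, minus strand: ggcggcTGACGTGGcgctcg
A match describes the letters only. Over all 25 genes with an exact ER stress response element in a window, 16 were tested. Of these, 8 were called lower and 2 higher, beside 12.0% lower and 12.2% higher among all tested genes. The 8 lower genes include CALR, CANX, PDIA6, HSPA5 and HSP90B1, shown above. All of these named genes lie at 300 CPM or more, where 35.8% of tested genes were called lower and 12.1% higher. They were also picked with earlier results of these data known, so the count of lower genes is not independent of that choice. Of 13 tested genes with ERSE-II, 2 were lower and 2 higher. Of 127 tested genes with TGACGTGG, 21 were lower and 18 higher. The part of these motifs in the levels was not tested. P4HB, PDIA4 and PDIA3 were called lower too, the first 2 with no match in their windows and PDIA3 with no window.

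**Figure D1:**
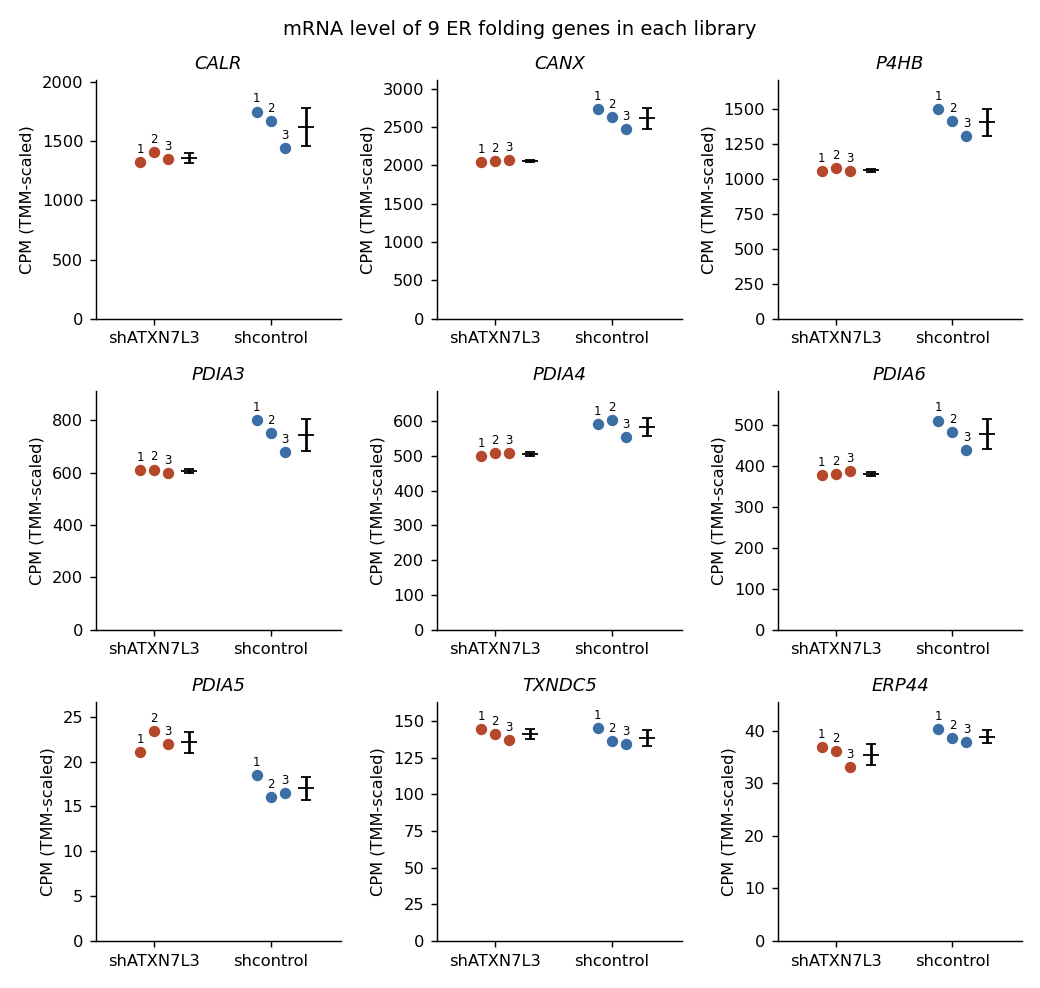
Level of each gene in TMM-scaled CPM (y axis, from 0) in the shATXN7L3 (red) and shcontrol (blue) libraries; numbers are replicates, and the black bar is the mean ± SD (n = 3). The 3 shATXN7L3 libraries lie below the 3 shcontrol libraries for CALR, CANX, P4HB, PDIA3, PDIA4, PDIA6 and ERP44 and above them for PDIA5.

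Among the lectins, CANX (chromosome 5, 179678628 to 179730925, plus strand, GRCh38) was the most abundant transcript of the 9 by reads. It stood at 2039, 2061 and 2070.1 CPM in shATXN7L3, against 2738, 2633 and 2473 CPM in shcontrol. The shATXN7L3 libraries were close together and all below the lowest control, shcontrol replicate 3. The log2 fold change was -0.35 ± 0.045 (SE; edgeR adjusted p = 9.74e-06), equal to 78.7% of shcontrol, with 73.9% and 83.7% as the bounds ± 2 SE away.

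CALR (chromosome 19, 12938578 to 12944489, plus strand), which also buffers ER calcium, had 1321, 1408 and 1349.8 CPM in shATXN7L3 and 1752, 1669 and 1445 CPM in shcontrol. Its groups came closest to each other among the genes that fell, with shATXN7L3 replicate 2 just under shcontrol replicate 3. The log2 fold change was -0.25 ± 0.056 (edgeR adjusted p = 0.00224). Per kb of exon, CANX mRNA stood at 0.672, 0.637 and 0.668 times the CALR level in shATXN7L3 libraries and at 0.680, 0.687 and 0.745 times in shcontrol libraries, so that the ratio was lower in every shATXN7L3 library. The difference of this ratio was not tested.

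P4HB (chromosome 17, 81843159 to 81860694, minus strand) encodes the founding protein disulfide isomerase, which also serves as a subunit of collagen prolyl hydroxylase and of the lipid transfer protein MTTP. It fell furthest of the 9, with 1056, 1078 and 1057 CPM in shATXN7L3 and 1503, 1415 and 1307 CPM in shcontrol. The log2 fold change was -0.40 ± 0.048 (edgeR adjusted p = 3.39e-06), or 75.5% of the control level (70.6% to 80.8%). Of its 4 tested partners, 1 rose and 0 fell. MTTP, which loads lipid onto apolipoprotein B, rose to 28.95 ± 0.523 CPM in shATXN7L3, against 20.9 ± 0.740 CPM in shcontrol (0.47 ± 0.058, edgeR adjusted p = 5.86e-06). The hydroxylase subunits P4HA1, P4HA2 and P4HA3 did not pass (0.13, 0.06 and 0.05). P4HA1 was called higher without shcontrol replicate 1 and when libraries were scaled by their size only, which makes 2 of 4 partners.

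PDIA3 (chromosome 15, 43746392 to 43773279, plus strand), the isomerase that binds CALR and CANX, had 609.8, 611 and 598 CPM in shATXN7L3 and 799, 749.9 and 677 CPM in shcontrol. All shATXN7L3 libraries were lower, and the log2 fold change was -0.29 ± 0.051 (edgeR adjusted p = 2.73e-04). Its processed copy PDIA3P1 on chromosome 1 had 161 to 210 counts per shATXN7L3 library and 212 to 236 per shcontrol library, against 14179 to 14738 and 15406 to 17983 for PDIA3. PDIA3P1 fell as well (-0.37, edgeR adjusted p = 0.0115; 0.0866 without shATXN7L3 replicate 2 and 0.0594 without shcontrol replicate 2). PDIA3P2 did not pass (-0.17, 0.662). Reads of PDIA3 and of these copies may not be told apart.

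PDIA6 (chromosome 2, 10783391 to 10837977, minus strand), an isomerase that associates with HSPA5, had 378, 379.9 and 387 CPM in shATXN7L3 and 512, 484 and 440.3 CPM in shcontrol. The groups were separate and the log2 fold change was -0.33 ± 0.050 (edgeR adjusted p = 5.95e-05). PDIA4 (chromosome 7, 149003062 to 149028641, minus strand), an isomerase of the ER chaperone complexes, had 499.98, 508 and 507 CPM in shATXN7L3 and 591, 603 and 554 CPM in shcontrol. It showed the smallest decrease among the genes that passed (-0.21 ± 0.043, edgeR adjusted p = 0.00147), and its groups were separate too.

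PDIA5 (chromosome 3, 123067062 to 123225227, plus strand), an isomerase known to act on the sensor ATF6, went the other way. It had 21.1, 23.4 and 21.9 CPM in shATXN7L3 and 18.4, 16.1 and 16.5 CPM in shcontrol, with all shATXN7L3 libraries higher. The log2 fold change was 0.38 ± 0.070 (edgeR adjusted p = 4.18e-04), or 130% of the control level (118% to 143%). It was the scarcest of the 9, at 349 to 564 counts per library. Per kb of exon, PDIA5 mRNA equalled 2.63%, 2.86% and 2.73% of P4HB mRNA in shATXN7L3 libraries and 1.62%, 1.49% and 1.66% in shcontrol libraries. The groups of this ratio were separate, and it was not tested.

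TXNDC5 (chromosome 6, 7881517 to 7910814, minus strand), an isomerase with several thioredoxin domains, had 144, 141 and 137 CPM in shATXN7L3 and 145, 136 and 135 CPM in shcontrol. The groups overlapped (0.02 ± 0.045, edgeR adjusted p = 0.745; interval 95.6% to 108% of the control level). ERP44 (chromosome 9, 99979179 to 100099040, minus strand), which retrieves unassembled secretory proteins from the Golgi, had 36.9, 36.2 and 33.1 CPM in shATXN7L3 and 40.3, 38.6 and 37.8 CPM in shcontrol. All its shATXN7L3 libraries lay below the controls, yet the difference did not pass (-0.13 ± 0.056, edgeR adjusted p = 0.0902, 0.0556 to 0.384 over the alternatives). Groups that do not overlap were common: 38.3% of all tested genes, 18.4% with shATXN7L3 lower and 19.8% with shATXN7L3 higher, against 7 lower and 1 higher of these 9.

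**Figure D2:**
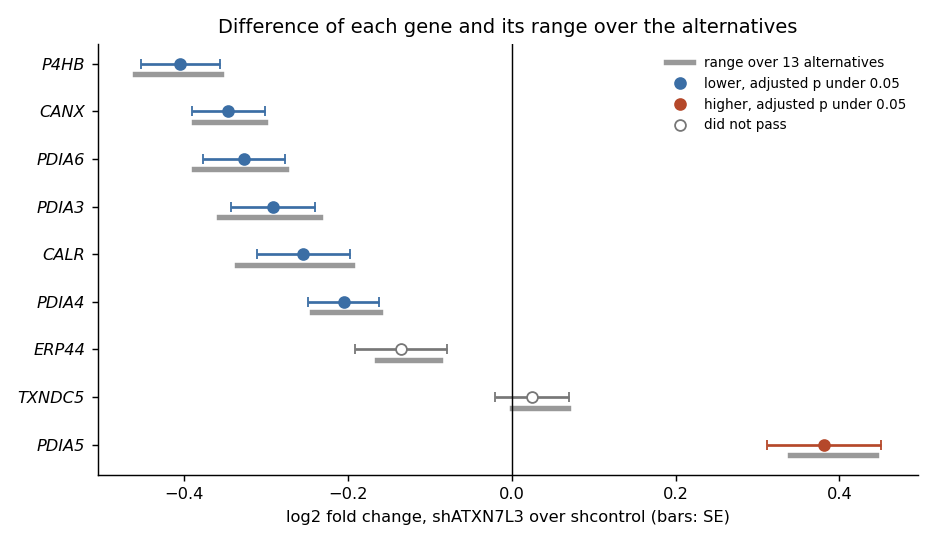
Log2 fold change of each gene, shATXN7L3 over shcontrol (x axis; points with SE), and its range over 13 alternative analyses (grey bars). P4HB is lowest at -0.40 and PDIA5 highest at 0.38; the 6 genes that fell and the 1 that rose stay on their side of 0 in every alternative.

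The 6 calls of lower genes and the call of PDIA5 held in all 13 alternatives tried, which include leaving out each library, DESeq2, limma voom and scaling by library size alone. The last of these turned the split of all called genes to 2955 higher and 1604 lower, against 2182 and 2150. Control libraries set most of the spread. shcontrol replicate 1 was the highest control for 8 of the 9 genes and shcontrol replicate 3 the lowest for 8 of the 9, while the SD was larger in shcontrol for 6 of the 6 genes that fell. The coefficient of variation of CALR, for example, was 3.23% in shATXN7L3 and 9.80% in shcontrol. Without shcontrol replicate 1 the log2 fold change of CALR was -0.20, and without shcontrol replicate 3 it was -0.34.

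Together the 9 genes took 0.624%, 0.630% and 0.624% of all counts in the shATXN7L3 libraries and 0.791%, 0.752% and 0.711% in the shcontrol libraries. Their summed level was 6171 ± 71.4 CPM in shATXN7L3 and 7642 ± 514 CPM in shcontrol (SD, n = 3 each). As differences of mean CPM, CANX fell by 557.5 CPM, P4HB fell by 345 CPM and CALR fell by 262 CPM.

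Per kb of exon the order of the levels was the same in both groups: CALR, CANX, P4HB, PDIA4, PDIA3, PDIA6, TXNDC5, ERP44 and PDIA5, from highest to lowest. CALR stood at 501 ± 16.2 CPM per kb in shATXN7L3 and 598 ± 58.6 in shcontrol, and PDIA5 at 5.49 ± 0.292 and 4.22 ± 0.315 CPM per kb (SD, n = 3 each). PDIA4 and PDIA3 were the 1 pair of neighbours in that order whose libraries overlapped, in shcontrol, at 178 ± 7.68 and 175 ± 14.5 CPM per kb. In shATXN7L3 they stood apart, at 154 ± 1.36 and 143 ± 1.79 CPM per kb. Exonic lengths are those deposited with the counts and join the exons of all isoforms, so levels of genes with long minor isoforms are understated.

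**Figure D3:**
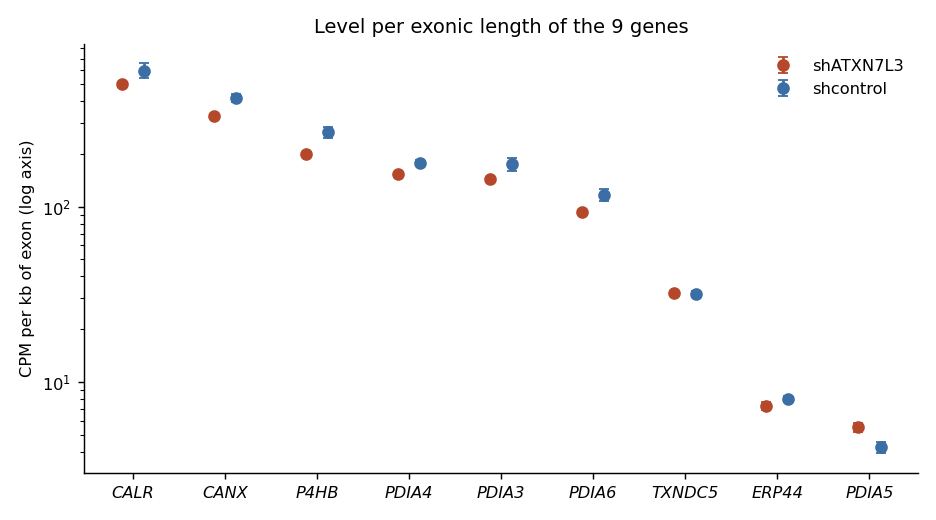
Level per kb of exon (log axis; CPM divided by deposited exonic length) in shATXN7L3 (red) and shcontrol (blue), mean ± SD, n = 3 each. The levels span from about 500 for CALR to about 5 for PDIA5, and the red point lies above the blue one for PDIA5 and, within the spread, for TXNDC5.

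Some exons of these genes are common to other genes, and whether reads were counted by strand is not stated. TXNDC5 is most affected: 60.6% of its exonic bases also belong to the readthrough gene BLOC1S5-TXNDC5, whose 2959 to 3127 counts in shATXN7L3 and 2661 to 3000 in shcontrol nearly equal those of TXNDC5. PDIA5 shares 12.2% of its bases on the same strand with SEC22A, which did not pass (-0.13, edgeR adjusted p = 0.351). On the opposite strand PDIA6 overlaps ATP6V1C2, a proton pump subunit, over 25.2% of its bases. ATP6V1C2 fell similarly (-0.38, edgeR adjusted p = 3.47e-05), and with unknown strand handling reads of the pair cannot be told apart. Smaller overlaps on the opposite strand joined P4HB with RP11-498C9.2 (9.98% of P4HB bases; -0.43), CALR with CTC-425F1.4 (9.95%; -0.32, a call that DESeq2 did not make, adjusted p = 0.0708), and PDIA3 with 3 genes. Of these, CATSPER2P1 (4.15%) was called lower (-0.27, edgeR adjusted p = 0.00628), while ELL3 (14.8%; 0.06) and RP11-296A16.1 (14.3%; 0.18) did not pass. PDIA4 and ERP44 overlapped no other exons.

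The chromosomal neighbours of the 9 genes were counted within 500 kb. Genes whose exons overlap those of the 9 were counted too, and their reads may be shared. Among the lower neighbours these were CTC-425F1.4 at CALR, ATP6V1C2 at PDIA6, RP11-498C9.2 at P4HB and CATSPER2P1 at PDIA3. Around CANX, 5 of 11 tested neighbours were lower and 0 higher, with a median log2 fold change of -0.23. They included RNF130, a ubiquitin ligase gene (-0.28 ± 0.051), the glycosyltransferase gene MGAT4B (-0.27 ± 0.049) and the autophagy receptor gene SQSTM1, at 1690.3 ± 33.8 CPM in shATXN7L3 and 1989 ± 69.5 CPM in shcontrol. C5orf45, which starts 104 kb from CANX, was lower too, at 877.5 CPM in shATXN7L3 and 1036.5 CPM in shcontrol. Its log2 fold change (-0.24) was close to that of SQSTM1 (-0.23), which starts 75.5 kb from CANX. Whether C5orf45 and SQSTM1 share reads was not tested, so the lower neighbours may not all be separate. MAML1, only 1.93 kb from CANX, did not pass (0.01, edgeR adjusted p = 0.942). On chromosome 5 from 170 Mb onwards, where CANX lies, 32.3% of 99 tested genes were lower and 7.07% higher, against 16.1% and 10.8% of 676 tested genes before that position (48 higher, 7.10%, with DESeq2). This stretch was chosen after its values were seen. The CANX neighbour counts stayed within 1.5 times under every alternative, as did the shares from 170 Mb onwards. Before 170 Mb the share of lower genes was 10.5% without shATXN7L3 replicate 1.

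Around the other genes the neighbour counts were small, and for each gene at least 1 count moved by over 1.5 times under some alternative. The shares were 14.8% lower and 9.26% higher around P4HB and 4.44% and 6.67% around CALR. Around PDIA3 they were 9.52% and 14.3%, and around ERP44 12.5% each. Over all tested genes 12.0% were lower and 12.2% higher. Around P4HB 8 of 54 were lower and 5 higher (median -0.04), and the count of higher ones was 0 without shATXN7L3 replicate 3, 1 without shATXN7L3 replicate 2 or shcontrol replicate 2, and 3 without shATXN7L3 replicate 1 or shcontrol replicate 3 or with DESeq2. Around CALR 2 of 45 were lower and 3 higher (-0.01), with 5 higher without shcontrol replicate 1 and 1 lower with DESeq2. Around PDIA3 2 of 21 were lower and 3 higher (0.06), with 1 lower without shcontrol replicate 2 and 6 higher when libraries were scaled by their size only. The strongest neighbour of PDIA3 was MAP1A, a microtubule-binding protein gene, which rose (0.94 ± 0.054, edgeR adjusted p = 1.47e-10).

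Around PDIA6 3 of 8 neighbours were lower and 1 higher (-0.19), with 5 lower without shcontrol replicate 3. Around PDIA4 2 of 12 were lower and 0 higher (-0.16). The PDIA4 count was 4 without shcontrol replicate 1, and 1 without shATXN7L3 replicate 1 or 2, without shcontrol replicate 2 or when libraries were scaled by their size only. Around ERP44 1 of 8 was lower and 1 higher (0.19). The lower call, of TEX10, ended without shATXN7L3 replicate 3 and with scaling by size only, which gave 2 higher, and the higher call, of MSANTD3, ended without shATXN7L3 replicate 1 or 2 or shcontrol replicate 2 and with DESeq2.

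Around PDIA5 2 of 9 neighbours were higher and 2 lower (-0.13), with the ubiquitin ligase gene DTX3L at 0.37 and the fatty acid elongation gene HACD2 at -0.37. There 1 was higher when any shATXN7L3 library or shcontrol replicate 2 was left out, with no filter, with DESeq2 or with its size factors, and 1 was lower without shATXN7L3 replicate 2 or shcontrol replicate 1. TXNDC5 had 4 lower and 3 higher neighbours of 9 (-0.03). The 3 higher ones were EEF1E1, BLOC1S5 and their readthrough gene EEF1E1-BLOC1S5. The readthrough gene may share reads with both, so the 3 calls are not independent. Without shATXN7L3 replicate 1 or shcontrol replicate 2 the counts were 2 lower and 1 higher, and with DESeq2 0 were higher. BMP6, a ligand gene 95 bases from TXNDC5, fell to 19.0 ± 1.20 CPM in shATXN7L3, against 27.5 ± 2.30 CPM in shcontrol.

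**Figure D4:**
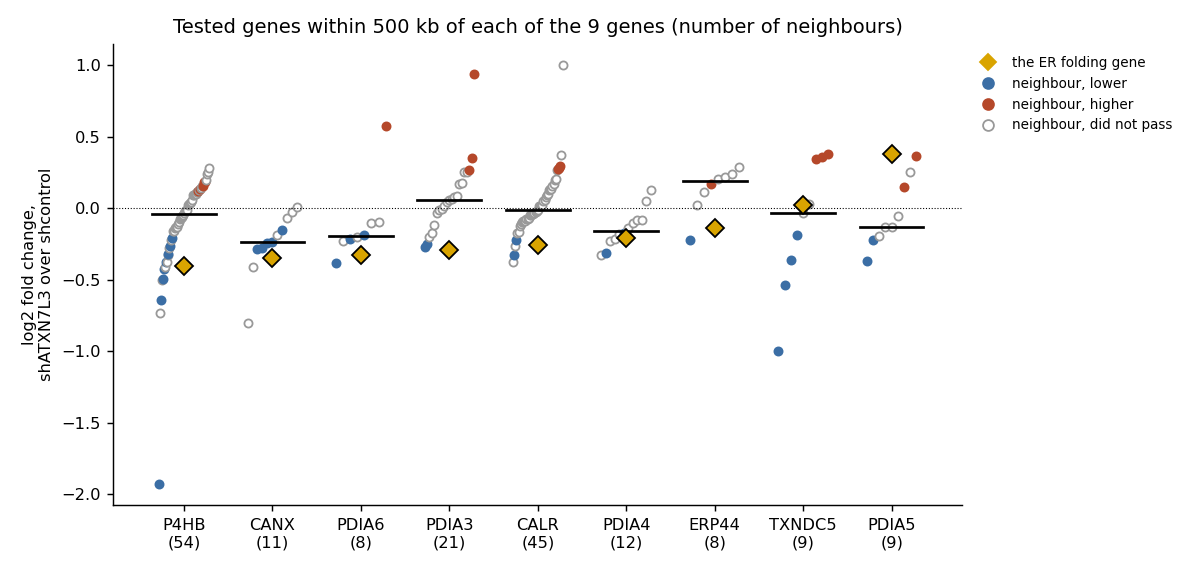
Log2 fold change, shATXN7L3 over shcontrol (y axis), of tested genes within 500 kb of each of the 9 genes (circles; filled where the adjusted p was under 0.05), with the median (bar) and the gene itself (diamond). The neighbours of CANX reach from -0.80 to 0.01, with a median of -0.23, while those of P4HB and CALR centre near 0.

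Further genes of the ER folding system were read from the same fit, in lists drawn from general knowledge. The count of each list stands beside 12.0% lower and 12.2% higher among all tested genes. Across the remaining 11 tested isomerase relatives, 7 fell and 0 rose (median -0.23; 1 rose when libraries were scaled by their size only). AGR2, an isomerase of mucin-producing cells, fell to 69.6 ± 3.98 CPM in shATXN7L3, against 97.7 ± 13.7 CPM in shcontrol (-0.49 ± 0.074, edgeR adjusted p = 5.66e-05). ERP29, a relative without an active disulfide site, fell by 0.33 on the log2 scale, TXNDC12 by 0.39 and TXNDC16 by 0.52. Among the membrane-anchored relatives, TMX1 fell (-0.21 ± 0.046, edgeR adjusted p = 0.00184), and TMX2, TMX3 and TMX4 did not pass.

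In the sugar-dependent folding cycle around CALR and CANX, 8 of 15 tested genes fell and 1 rose (median -0.12). CLGN, a calnexin relative known from testis, fell to 20.9 ± 0.910 CPM in shATXN7L3, against 30.5 ± 1.76 CPM in shcontrol (-0.54 ± 0.062, edgeR adjusted p = 2.21e-06). The cargo lectin LMAN2 (-0.28 ± 0.053) and the degradation lectin OS9 (-0.23 ± 0.050) fell too, and EDEM2, which trims mannose from misfolded glycoproteins, rose (0.25 ± 0.049). UGGT1, the sensor that sends unfolded glycoproteins back to CALR and CANX, did not pass (-0.11, edgeR adjusted p = 0.0619). The count of lower genes was 4 without shATXN7L3 replicate 1 or 2 and 5 when libraries were scaled by their size only, which also gave 2 higher.

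Of 16 ER chaperones of the HSP70 and HSP90 systems, 10 fell and 0 rose (median -0.20). At 300 CPM or more, where HSPA5 and HSP90B1 lie, 35.8% of tested genes were called lower and 12.1% higher. HSPA5, the HSP70 of the ER, had 1452, 1467 and 1418 CPM in shATXN7L3 and 1861, 1798 and 1554 CPM in shcontrol (-0.27 ± 0.054, edgeR adjusted p = 0.00112). It showed the same order of control libraries as CALR, CANX and P4HB. HSP90B1, its HSP90 counterpart, averaged 2848 ± 6.92 CPM in shATXN7L3 and 3360 ± 249 CPM in shcontrol (-0.24 ± 0.050, edgeR adjusted p = 0.00133). The translocon partner SEC63 (-0.28), the co-chaperone DNAJC3 (-0.27) and the nucleotide exchange factor HYOU1 (-0.22) fell by similar amounts. The count of lower genes was 6 without shATXN7L3 replicate 2, and 5 without shATXN7L3 replicate 3, without shcontrol replicate 1 or when libraries were scaled by their size only.

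The oxidising enzymes differed in direction: 3 of 9 rose and 1 fell (median 0.08). GPX8, an ER peroxidase, rose to 28.4 ± 1.20 CPM in shATXN7L3, against 21.0 ± 2.82 CPM in shcontrol (0.43 ± 0.077, edgeR adjusted p = 3.19e-04). ERO1A, which reoxidises P4HB, rose by a smaller amount (0.17 ± 0.054, edgeR adjusted p = 0.0224), and its call ended without shATXN7L3 replicate 3 (0.172) or shcontrol replicate 2 (0.109). The count of higher oxidising enzymes was 1 without either of these libraries, and that of lower ones was 0 without shATXN7L3 replicate 1. The calls of VKORC1 (0.23) and QSOX2 (-0.16) ended under alternatives too. That of VKORC1 ended with DESeq2 (adjusted p = 0.0603) and without shATXN7L3 replicate 2 (0.0902) or 3 (0.063) or shcontrol replicate 2 (0.122) or 3 (0.0619), and that of QSOX2 without shATXN7L3 replicate 1 (0.0692).

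Among 11 sensors and factors of the unfolded protein response, 3 rose and 2 fell (median -0.01). ATF4 mRNA stood at 163, 169 and 165 CPM in shATXN7L3 and 135, 124 and 126 CPM in shcontrol, with all shATXN7L3 libraries higher (0.37 ± 0.046, edgeR adjusted p = 5.57e-06). DDIT3, a factor induced downstream of ATF4, fell (-0.22 ± 0.061, edgeR adjusted p = 0.0131), a call that ended without shATXN7L3 replicate 1 (0.0508) or 3 (0.061) or shcontrol replicate 2 (0.0734). MBTPS1, the protease that first cleaves ATF6, was lower as well (-0.18, edgeR adjusted p = 0.00514). ATF6 (-0.13, edgeR adjusted p = 0.0675) and XBP1 (0.09, 0.209) did not pass, and gene counts do not show XBP1 splicing or ATF6 cleavage. EIF2AK3, the kinase PERK, rose by 0.17, and its call ended with DESeq2 (0.0861) and without shATXN7L3 replicate 1 (0.0556) or 3 (0.117) or shcontrol replicate 2 (0.0594). The count of higher genes was 1 with DESeq2 or without shATXN7L3 replicate 1 or 3, and 5 without shcontrol replicate 1; that of lower genes was 1 without shATXN7L3 replicate 1 or 3 or shcontrol replicate 2.

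Of 14 genes of ER-associated degradation, 5 fell and 2 rose (median -0.05). FAF2, a membrane recruiter of VCP, fell to 70.9 ± 2.24 CPM in shATXN7L3, against 95.3 ± 3.22 CPM in shcontrol (-0.43 ± 0.047), and SEL1L, the scaffold of the main ligase, fell by 0.24 on the log2 scale. MARCH6 fell (-0.16) and RNF5 rose (0.32), and each of these calls ended in 3 of 13 alternatives. The number of lower genes was 2 without shATXN7L3 replicate 1 or 3 or with library size alone. It was 3 with DESeq2 or without shcontrol replicate 1. The number of higher genes was 0 without shATXN7L3 replicate 2 or shcontrol replicate 2, and 1 with DESeq2, with no filter or without shATXN7L3 replicate 1 or 3. KDELR3, a receptor that returns ER proteins such as P4HB and CALR from the Golgi, rose to 7.39 ± 0.637 CPM in shATXN7L3, against 4.31 ± 0.386 CPM in shcontrol (0.78 ± 0.11, edgeR adjusted p = 4.12e-05). The far more abundant KDELR1 and KDELR2 did not pass (-0.12 and -0.05), although KDELR1 was called lower without shcontrol replicate 3.

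PDIA3 and CALR also belong to the complex that loads peptides onto MHC class I. Of its other 10 listed genes, 2 rose and 0 fell (median 0.02). ERAP2, a trimming peptidase, rose (0.33 ± 0.065, edgeR adjusted p = 9.60e-04). The second, the peptide transporter subunit TAP2 (0.16, edgeR adjusted p = 0.0405), lost its call in 7 of 13 alternatives, with DESeq2 (0.124), no filter (0.0501) and the loss of any library other than shcontrol replicate 1 (0.0508 to 0.185). Tapasin (TAPBP), the partner of PDIA3 in the complex, did not pass (-0.12, edgeR adjusted p = 0.0905). Without shcontrol replicate 3, HLA-B was called lower. Across the 93 tested genes of these 9 lists, 33 were lower and 13 higher, beside 12.0% and 12.2% of all tested genes. Without shATXN7L3 replicate 1 the lower count was 21. The higher count was 7 or 8 with DESeq2 and without shATXN7L3 replicate 2 or 3 or shcontrol replicate 2.

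**Figure D5:**
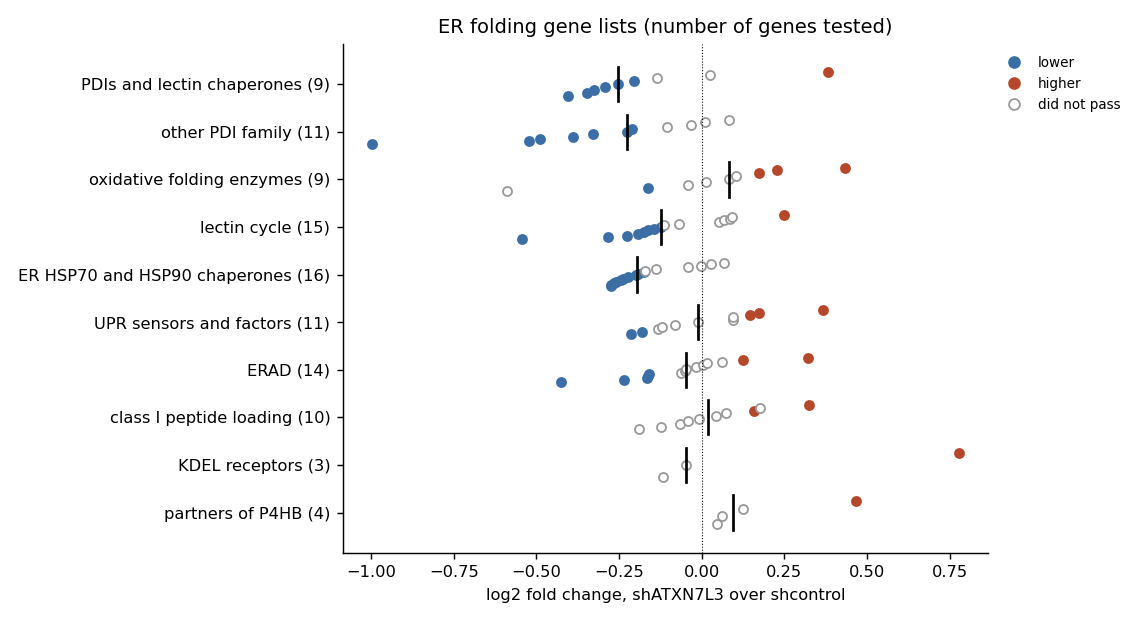
Log2 fold change, shATXN7L3 over shcontrol (x axis), of every tested gene in the 9 PDI and lectin genes and in 9 further lists (number tested in brackets); filled points had an adjusted p under 0.05, and black bars are medians. The top row, the PDI family row and the HSP70 and HSP90 row have medians of -0.25, -0.23 and -0.20, while the oxidising enzymes centre at 0.08.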

How the data were processed

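Poly-A RNA of 6 HCCLM3 libraries was measured. The authors deposited raw read counts per gene symbol with exonic coordinates and lengths; per the submitters' processing notes, reads were trimmed with Trimmomatic 0.36 and handled on GRCh38 with STAR 2.5.3a; featureCounts (Subread 1.5.1) and edgeR 3.12.1 are named too. The sources used here do not give the annotation release, the strand setting or the treatment of multiply matching reads. Groups came from the treatment label.

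Genes were kept with filterByExpr (minimum count 10, minimum total 15), scaled by TMM and tested in edgeR 4.0.16 (R 4.3.3) by quasi-likelihood, with Benjamini-Hochberg adjustment over all 17935 genes and a threshold of 0.05. CPM are TMM-scaled counts per 1000000; SE is the log2 fold change divided by the square root of F, an approximation. The script was tested on simulated data. Alternatives used DESeq2 1.42.0, limma 3.58.1, other scalings and filters, a replicate block and each library left out. No values of other samples were in the table.

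The 9 genes, the lists and the motifs were chosen with earlier results of these data known. Named genes are the 9 and ATXN7L3, and a part of those picked by a rule. The rule took up to 4 called genes per list and up to 3 called neighbours per gene by smallest p, and copies or overlapping genes. Neighbours picked but not described include EZH2 and DIRC2, whose calls ended under some alternatives, and ZNF777 and ODC1, whose calls held. Further genes were named after their values were seen: HSP90B1, UGGT1, ATF6, XBP1, TMX1, TMX2, TMX3, TMX4 and the P4HA genes. So were KDELR1, KDELR2, TAPBP, MAML1, C5orf45, HLA-B, AFP, APOA1, BLOC1S5 and EEF1E1-BLOC1S5. Promoter sequences are from RefSeq.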

Additional observations from a re-analysis of the deposited data

How the results depend on the processing

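The 9 genes and ATXN7L3 kept their direction and their side of the threshold in all 130 comparisons with the 13 alternatives, and the counts of 6 lower and 1 higher did not move. Log2 fold changes ranged from -0.46 to -0.36 for P4HB, -0.39 to -0.30 for CANX, -0.39 to -0.28 for PDIA6, -0.36 to -0.23 for PDIA3, -0.34 to -0.20 for CALR, -0.24 to -0.16 for PDIA4 and 0.34 to 0.44 for PDIA5. Over all genes, DESeq2 called 1405 higher (edgeR 2182) and leaving out a library gave 1543 to 2224 higher and 1547 to 2257 lower. Of the genes in the 9 further lists, DESeq2 called 8 higher, and leaving out a library gave 7 to 18 higher and 21 to 37 lower. For 64 other genes picked by the naming rule, 787 of 831 comparisons kept the call, 44 lost it, in 15 genes, and 0 reversed. Genes named after their values were seen, HSP90B1 and TMX1 among them, are not part of these comparisons. P4HA1, KDELR1 and HLA-B, which are not part of them either, each gained a call under some alternative. No sign of pairing by replicate number was seen between the groups. Deviations of same-numbered libraries correlated at -0.016, 0.0051 and 0.044 over genes, and 1 of 3 shATXN7L3 libraries correlated best with its own number. With 3 libraries per group, each centred on its own mean, this check cannot exclude a pairing or a shared batch. With the replicate number as a block, 2188 genes were higher and 2140 lower, and the 9 genes again gave 6 lower and 1 higher; no call among the 9 changed. Depth limits PDIA5 most, at 349 counts in its lowest library.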
